A study of Mus musculus with 8 samples.

Results

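A set of 10 genes of natural killer (NK) and effector T cell surface biology was followed across EL4 cells that expressed T-bet, GATA3, both factors or neither. They were Samd3, Klrd1, Klrk1, Klrg1, Klrc1, Klrb1c, Ncr1, Cd244, Cd226 and Slamf7, which are 10 of the 54146 genes with values. The set was chosen from measured values of these same libraries, as NK and effector T cell surface genes set against T-bet, with Samd3 added because its rise with T-bet was large. The differences between lines with and without T-bet are therefore given for these genes as a description, with no p-value and no count of calls.

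EL4 is a lymphoblast line from C57BL/6 mice. FLAG-tagged T-bet, HA-tagged GATA3 or control fluorescent proteins were expressed in it to give 4 lines, each with 2 libraries. GFP + Plum cells carried both control proteins, T-bet + Plum cells carried FLAG-T-bet with the control Plum, GFP + GATA3 cells carried HA-GATA3 with the control GFP, and T-bet + GATA3 cells carried both factors. All 4 lines were stimulated with PMA at 50 ng/ml and ionomycin at 1 µM for 4 h before poly-adenylated RNA was sequenced, so unstimulated cells were not compared. Each combination of factors was a single line, and the libraries of a line are separate harvests of it in the study's definition of a biological replicate. A difference between constructs and a difference between lines that arose for another reason cannot be told apart, and p-values measure only the spread between harvests.

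The libraries held between 8038284 and 16003190 estimated counts, the lowest in T-bet + Plum library 1, and 3 counts corresponded to 0.186 to 0.373 CPM. Levels are given as CPM, which are counts divided by library sizes scaled by the trimmed mean of M values (TMM). Tbx21, which encodes T-bet, was at 129 to 160 CPM in the 4 libraries with FLAG-T-bet and at 1.78 to 3.59 CPM in the other 4. Gata3 was at 283 and 326 CPM in GFP + GATA3, 204 and 165 in T-bet + GATA3, 39.8 and 53.3 in GFP + Plum and 25.8 and 34.9 in T-bet + Plum, the last 2 lines having the endogenous gene alone. It was thus lower in both libraries with T-bet than in both libraries of the matching line without it, and the part of this in the comparisons with GATA3 on both sides and in the interaction was not tested. Of 13 T cell markers, Cd8a and Cd247 stayed at 10 counts or fewer in every library, and Cd4 had 9 to 71 counts. The sum of all 13 was at 2300 to 2440 CPM without T-bet and at 3040 to 3580 CPM with it. Of 10 NK lineage markers, Eomes, Tyrobp, Fcgr3 and Klra8 had 0 counts in all 8 libraries. The sum of the 10 was at 69.9 to 103 CPM without T-bet and at 151 to 364 CPM with it, and Gzma made up most of it, with means of 37.9 and 77.2 CPM in GFP + Plum and GFP + GATA3 and of 148 and 344 CPM in T-bet + Plum and T-bet + GATA3. Fcer1g went the other way, from means of 32.3 and 23.9 CPM without T-bet to 2.56 and 1.90 CPM with it, and Prf1 had at most 7 counts. The 4 B cell markers summed to at most 0.507 CPM in any library. The 5 myeloid markers summed to 0.249 to 0.479 CPM with T-bet and 0.99 to 1.63 CPM without it. The part of these differences in the results was not tested.

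NK cells and effector T cells read the state of other cells through pairs of activating and inhibitory surface receptors. Many of these are C-type lectin-like proteins encoded side by side in the natural killer gene complex on mouse chromosome 6. Klrd1 encodes CD94, which pairs with the inhibitory NKG2A chain encoded by Klrc1 or with the chain encoded by Klrc2, and the pair binds the non-classical MHC molecule Qa-1. T-bet is a T-box transcription factor needed for TH1 differentiation and for NK cell maturation, whereas GATA3 is the main factor of TH2 cells.

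Promoter sequences are shown for genes of the set with and without a match to the T-box core, to set the letters beside the levels that follow. Windows of 250 bases before to 50 bases after RefSeq start sites on GRCm38.p6 were read for 7 of the 10 genes, all but Klrd1, Klrg1 and Cd226. The motifs searched on both strands were the T-box core GTGTGA, the T-box 8-mer AGGTGTGA, which contains that core, and the GATA core GATA. Capitals mark a match to the core or the 8-mer, and all sequences run 5′ to 3′ on the strand of the gene.
Samd3 promoter, chr10:26229457-26229756, plus strand: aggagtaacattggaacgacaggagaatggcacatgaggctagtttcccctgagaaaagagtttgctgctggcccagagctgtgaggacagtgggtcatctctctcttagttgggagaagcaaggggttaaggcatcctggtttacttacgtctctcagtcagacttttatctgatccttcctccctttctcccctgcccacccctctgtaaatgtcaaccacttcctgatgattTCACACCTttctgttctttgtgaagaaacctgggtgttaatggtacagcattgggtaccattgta
Slamf7 promoter, chr1:171648950-171649249, minus strand: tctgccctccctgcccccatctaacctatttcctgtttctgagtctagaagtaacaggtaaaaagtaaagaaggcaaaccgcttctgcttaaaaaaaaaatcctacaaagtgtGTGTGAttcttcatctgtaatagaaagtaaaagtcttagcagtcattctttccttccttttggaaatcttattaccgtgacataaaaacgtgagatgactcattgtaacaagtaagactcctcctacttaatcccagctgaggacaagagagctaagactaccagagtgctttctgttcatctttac
Ncr1 promoter, chr7:4337474-4337773, plus strand: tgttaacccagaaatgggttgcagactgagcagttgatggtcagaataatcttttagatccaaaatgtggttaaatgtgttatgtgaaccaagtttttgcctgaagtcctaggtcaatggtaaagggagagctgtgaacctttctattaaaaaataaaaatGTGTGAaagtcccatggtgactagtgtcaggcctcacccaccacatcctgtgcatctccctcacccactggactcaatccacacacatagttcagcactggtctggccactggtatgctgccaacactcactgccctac
Klrc1 promoter, chr6:129678924-129679223, minus strand: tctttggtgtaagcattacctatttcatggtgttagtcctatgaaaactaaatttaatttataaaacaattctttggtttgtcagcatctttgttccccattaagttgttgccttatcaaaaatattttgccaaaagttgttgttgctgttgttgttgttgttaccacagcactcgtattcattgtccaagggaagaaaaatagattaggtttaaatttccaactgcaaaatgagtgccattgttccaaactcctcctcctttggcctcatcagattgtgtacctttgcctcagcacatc
Klrk1 promoter, chr6:129623815-129624114, minus strand: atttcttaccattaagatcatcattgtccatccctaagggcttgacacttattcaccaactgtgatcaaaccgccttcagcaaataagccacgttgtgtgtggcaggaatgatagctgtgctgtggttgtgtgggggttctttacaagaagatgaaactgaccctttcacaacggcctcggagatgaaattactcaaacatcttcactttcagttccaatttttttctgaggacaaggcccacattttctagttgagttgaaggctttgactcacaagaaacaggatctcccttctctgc
The T-box core occurred in 3 of the 7 promoters, Samd3, Slamf7 and Ncr1, and in 14.5% of all 32851 promoters in the table. Samd3 was the member with the 8-mer, as its reverse complement TCACACCT, 15 to 8 bases before the start site. The 8-mer occurred in 1.28% of all promoters. A GATA core occurred in 4 of the 7 promoters, Samd3, Klrc1, Klrk1 and Klrb1c, and in 57.9% of all promoters. Of the genes with the core, Samd3 and Slamf7 were high with T-bet and Ncr1 had no counts. Of those read without it, Klrc1 reached the highest level per length among the 10 genes, while Cd244, Klrk1 and Klrb1c were low or near 0. Whether motifs and levels go together was not tested. The Slamf7 window holds the starts of 2 of its transcripts, and another pair starts 60 and 72 bases after the RefSeq site, just past the end of the window. The start of its longest transcript lies 4036 bases from that site, and this transcript made up 41.2% to 56.6% of the gene's TPM, the abundance scaled by length, in the T-bet libraries.

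The 10 genes fell into 4 kinds of pattern. Samd3, Klrd1, Klrc1 and Slamf7 were high in all 4 libraries with T-bet and low in the other 4. Klrg1 and Cd226 differed in the same direction at much lower levels, Cd244 was low in all 4 lines, and Klrk1, Klrb1c and Ncr1 were at or near 0 in every library. The comparisons of lines with and without T-bet chose the genes, so nothing is read from their differences there. In the comparisons for GATA3 and for other genes, calls were made at an FDR no higher than 0.05 where the log2 fold change (FC) also exceeded 1.5 either way. In RNA from whole cultures, more cells with a transcript and more of it per cell cannot be told apart. Only 7 of the 10 passed the filter on low counts, and for some of these the T-bet lines alone carried them past it.

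**Figure D1:**
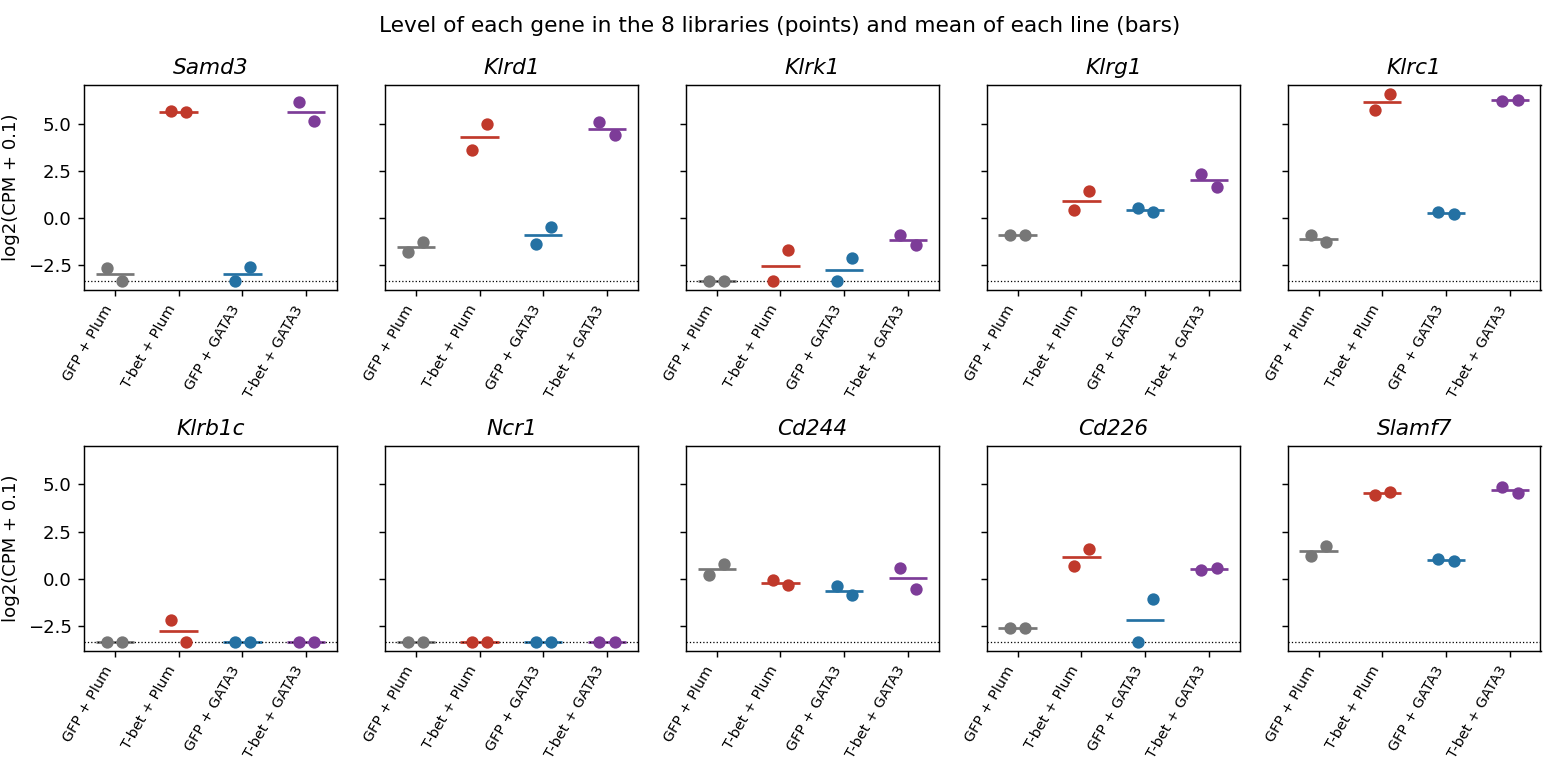
Level of each of the 10 genes in each library, as log2(CPM + 0.1), with points for the 2 libraries of a line and a bar for the mean of the 2 log values. The dotted line marks 0 counts. Samd3, Klrd1, Klrc1 and Slamf7 stand high in both T-bet lines, Cd244 does not separate the 4 libraries with T-bet from the 4 without, and Ncr1 lies on the dotted line throughout.

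Samd3, whose product carries a sterile alpha motif (SAM) domain, was near 0 without T-bet. It lies on chromosome 10 (ENSMUSG00000051354.14, chr10:26229707-26272172, plus strand, GRCm38). The 2 GFP + Plum libraries held 1 and 0 counts, and the 2 GFP + GATA3 libraries held 0 and 1. The T-bet + Plum libraries were at 50.2 and 49.6 CPM, and the T-bet + GATA3 libraries at 70.7 and 34.8 CPM. Every library with T-bet was thus far above every library without it, and the T-bet + GATA3 libraries bracketed those of T-bet + Plum. The pooled counts gave a ratio of 1590 for T-bet + Plum over GFP + Plum, with a 95% counting interval of 285 to 62900. With GATA3 on both sides the ratio was 1270, with an interval of 228 to 50200. Those intervals cover counting error alone, and they are wide because a single count stands in each denominator. The fitted log2 FC of 10.26 ran from 9.44 without GFP + Plum library 2 to 12.31 without GFP + Plum library 1, and it was 8.93 with transcript length offsets. With GATA3 on both sides it was 10.11, ran from 9.49 without GFP + GATA3 library 1 to 12.39 without GFP + GATA3 library 2, and was 8.56 with length offsets. For 12.31 and 12.39 the line without T-bet then had 0 counts, so these 2 values are no usable estimates. Samd3 fragments in the T-bet libraries were assigned mainly to 2 protein-coding transcripts, ENSMUST00000220219.1 with 22.8% to 55.8% of the gene's TPM and ENSMUST00000060716.5 with 18.7% to 49.8%. The latter starts at the RefSeq site of the promoter shown, and the former starts 419 bases further on.

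Klrd1 (ENSMUSG00000030165.16, chr6:129591782-129598775, plus strand) and Klrc1 (ENSMUSG00000030167.15, chr6:129666015-129678973, minus strand) encode the 2 chains of the CD94 and NKG2A receptor. Klrd1 was at 0.186 and 0.317 CPM in GFP + Plum, 11.9 and 31.2 in T-bet + Plum, 0.287 and 0.634 in GFP + GATA3, and 34.1 and 20.9 in T-bet + GATA3. Klrc1 was at 0.433 and 0.317 CPM in GFP + Plum, 52.9 and 94.3 in T-bet + Plum, 1.15 and 1.08 in GFP + GATA3, and 74.7 and 75.5 in T-bet + GATA3. For both genes the 4 libraries with T-bet lay above the 4 without it, with no overlap. Set against GFP + Plum cells, T-bet + Plum cells had a log2 FC of 6.39 for Klrd1, with an approximate standard error (SE) of 0.66. For Klrc1 it was 7.58, with an SE of 0.378. With GATA3 on both sides the log2 FC was 5.78 for Klrd1 with an SE of 0.619, and 6.07 for Klrc1 with an SE of 0.337. Klrd1 differed between the T-bet + Plum libraries more than Klrc1 did, and without library 2 its log2 FC was 5.52. With GATA3 on both sides it ran from 5.37 to 6.53 with single libraries left out, the highest without GFP + GATA3 library 2. Per length, Klrd1 reached 0.444 to 0.93 of the TPM of Klrc1 in the 4 T-bet libraries, so transcripts of both genes were detected in each of them. The main transcripts were protein-coding for both genes. ENSMUST00000112063.8 took 67.7% to 80.6% of Klrd1, while ENSMUST00000032270.12 and ENSMUST00000169545.7 took 55.8% to 66.9% and 33.1% to 40.3% of Klrc1. Klrc1, Klrc2 and Klrc3 are near copies of each other, and kallisto divides fragments that match several of them, so the split between them is an estimate.

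Slamf7 (ENSMUSG00000038179.13, chr1:171632403-171653035, minus strand) encodes a receptor of the SLAM family that binds itself on neighbouring cells. It was at 2.23 and 3.30 CPM in GFP + Plum, 21.5 and 24.4 in T-bet + Plum, 2.01 and 1.84 in GFP + GATA3, and 28.8 and 23.7 in T-bet + GATA3. Unlike Samd3, Klrd1 and Klrc1 it was above 20 counts in every library, so its lines without T-bet had a measurable level. The log2 FC was 3.05 without GATA3, with an SE of 0.233, and 3.77 with GATA3, with an SE of 0.248. Its replicate libraries lay close together in each line, and the lines with and without T-bet did not overlap.

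Klrg1 (ENSMUSG00000030114.8, chr6:122270596-122282882, minus strand) encodes an inhibitory receptor for cadherins and marks late effector cells. It was at 0.433 and 0.444 CPM in GFP + Plum, 1.24 and 2.60 in T-bet + Plum, 1.34 and 1.14 in GFP + GATA3, and 4.97 and 3.06 in T-bet + GATA3. T-bet + Plum library 1 fell among the GFP + GATA3 libraries, so the lines with and without T-bet overlapped. The log2 FC was 2.15 without GATA3 and 1.68 with it, and it rested on 46 counts at most in a library. The former was 1.48 without T-bet + Plum library 2, and the latter ran from 1.28 to 1.96 with single libraries left out. Cd226, on chromosome 18 (ENSMUSG00000034028.15), encodes the activating receptor DNAM-1, which binds Pvr and Nectin2. It was at 0.0619 and 0.0634 CPM in GFP + Plum, 1.49 and 2.94 in T-bet + Plum, 0 and 0.38 in GFP + GATA3, and 1.30 and 1.40 in T-bet + GATA3. The 4 libraries with T-bet did not overlap the other 4, although the highest held only 43 counts. The pooled counts of 55 and 2 gave a ratio of 38.7 for T-bet + Plum over GFP + Plum, with a counting interval of 10.2 to 328. With GATA3 on both sides, 33 and 6 counts gave a ratio of 5.94, with an interval of 2.46 to 17.3. The fitted log2 FC of the former was 4.98. It ran from 4.38 to 5.36 with single libraries left out, and was 4.04 with length offsets. The fitted log2 FC of the latter was 2.58, and 1.80 without GFP + GATA3 library 1. Without GFP + GATA3 library 2 it was 7.12, but that line then had 0 counts, so this value is no usable estimate.

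Cd244 (ENSMUSG00000004709.14, chr1:171559193-171609746, plus strand) encodes the SLAM family receptor for Cd48. It was at 1.05 and 1.65 CPM in GFP + Plum, 0.871 and 0.684 in T-bet + Plum, 0.67 and 0.444 in GFP + GATA3, and 1.41 and 0.599 in T-bet + GATA3. Both T-bet + Plum libraries lay below both GFP + Plum libraries, whereas those of T-bet + GATA3 and GFP + GATA3 overlapped. The log2 FC for T-bet was -0.81 without GATA3 and 0.81 with it. With single libraries left out they ran from -1.11 to -0.46 and from 0.11 to 1.31, the lowest of the latter without T-bet + GATA3 library 1, and with length offsets they were -0.41 and 1.49. The transcripts of the gene differed more than its sum. The protein-coding transcript ENSMUST00000004829.12 was estimated at 0 counts in all 4 T-bet libraries, and at 5.3, 19.2, 6.1 and 5.1 counts in the GFP + Plum and GFP + GATA3 libraries. A transcript annotated for nonsense-mediated decay, ENSMUST00000194797.1, was at 4.8 to 12.0 counts in the T-bet libraries and at 0 to 6.8 counts in the others. These estimates rest on a few fragments each. Klrk1 (ENSMUSG00000030149.15, chr6:129610323-129623864, minus strand) encodes the activating receptor NKG2D. It had 0 and 0 counts in GFP + Plum, 0 and 3 in T-bet + Plum, 0 and 2 in GFP + GATA3, and 4 and 4 in T-bet + GATA3. Klrb1c (ENSMUSG00000030325.16, chr6:128778485-128789215, minus strand), which encodes the NK1.1 antigen of C57BL/6 mice, had 1 count in T-bet + Plum library 1 and 0 elsewhere. Ncr1 (ENSMUSG00000062524.4, chr7:4337724-4345164, plus strand), which encodes NKp46, had 0 counts in all 8 libraries, which allows up to 0.186 to 0.373 CPM by library. Differences between the lines near or below that level were not detectable in these 3 genes at this depth.

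Levels were compared between genes per length, as TPM. In T-bet + Plum cells Klrc1 was the highest at a mean of 55.2 TPM (SD 21.3, n = 2), followed by Samd3 at 35.2 (SD 2.54), Klrd1 at 30.6 (SD 18.1) and Slamf7 at 9.80 (SD 0.45). The libraries of Samd3 and Klrd1 overlapped, so their order is not resolved, and those of Klrd1 and Klrc1 overlapped as well. The libraries of Klrc1 and Samd3 did not overlap, and those of Slamf7 lay below all 3. Klrg1 followed at 1.51 TPM (SD 0.745) and Cd226 at 1.36 (SD 0.373), which overlapped. Cd244 was at 0.434 TPM (SD 0.0489), Klrk1 at 0.114 (SD 0.161) and Klrb1c at 0.0416 (SD 0.0588). In T-bet + GATA3 cells the leading genes were Klrc1 at 53.7 TPM (SD 9.01), Klrd1 at 37.4 (SD 9.36) and Samd3 at 33.3 (SD 11.4). Klrd1 and Samd3 overlapped there too. Klrg1 was at 2.94 TPM (SD 0.746) in these cells and Cd226 at 0.698 (SD 0.0361), with no overlap between them.

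The comparisons for GATA3 did not choose the genes, although they share libraries with those that did, and they were tested. In GFP + GATA3 versus GFP + Plum, edgeR's quasi-likelihood test called 0 of the 7 tested genes, where 0.0203% of all tested genes were called in either direction. For Samd3, Klrd1 and Cd226 that says little, since they had at most 1, 10 and 6 counts in any library of these lines and passed the filter only through the lines with T-bet. Klrc1, Klrg1, Cd244 and Slamf7 were the others tested. Between the lines with T-bet it called 0 of the 7, against 0.0338% of all tested genes. DESeq2 also called 0 in both comparisons. At an unadjusted p under 0.05 there were 3 of the 7 in the first comparison, where 3.7% of all tested genes were. There was 1 of the 7 in the second, where the share was 3.78%. The 3 were Klrc1 with a log2 FC of 1.54 (SE 0.53), Klrg1 with 1.47 (SE 0.519) and Cd244 with -1.29 (SE 0.562), each with an FDR of 1.0 over all genes. For Klrc1 and Klrg1 both GFP + GATA3 libraries lay above both GFP + Plum libraries, and in Cd244 both lay below. The FDR of Klrc1 ranged from 0.0874 to 1.0 over the alternative analyses. Samd3 at 1 count per line gave no usable estimate of the GATA3 effect in cells without T-bet, with an SE of 2.02 on the log2 scale.

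In cells with T-bet, the 4 genes high with T-bet had log2 FCs for GATA3 between 0.02 and 0.32. That of Klrd1 ran from -0.19 to 1.20 with single libraries left out, the highest without T-bet + Plum library 2. T-bet + GATA3 cells differed from T-bet + Plum cells by a log2 FC of 0.07 for Samd3 (SE 0.31), 0.32 for Klrd1 (SE 0.428), 0.02 for Klrc1 (SE 0.237) and 0.19 for Slamf7 (SE 0.205), and leaving out a library turned the sign for Samd3, Klrd1 and Klrc1. Klrg1 was the gene under an unadjusted 0.05, with a log2 FC of 1.00 (SE 0.43, FDR of 1.0), and both T-bet + GATA3 libraries lay above both T-bet + Plum libraries. Its log2 FC ran from 0.61 to 1.67 with single libraries left out, the highest without T-bet + Plum library 2. These tests do not show that levels were equal. The interaction, which asks whether the T-bet difference itself changed with GATA3, called at the FDR alone 0 of the 7 genes with edgeR, as it did 0% of all 14791 tested genes, and DESeq2 called 0 of the 7. At an unadjusted p under 0.05 there was 1 of the 7, where 2.58% of all genes were. It was Klrc1, with -1.51 on the log2 scale (SE 0.582, FDR of 1.0). The Klrc1 value followed from 12 pooled counts in GFP + Plum and 29 in GFP + GATA3. The interaction contains the T-bet differences that chose the genes, so nothing is read from its counts over the 7. Samd3, Klrd1 and Cd226 also passed the filter only through the lines with T-bet, and their SEs in it were 1.84, 1.05 and 1.37.

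**Figure D2:**
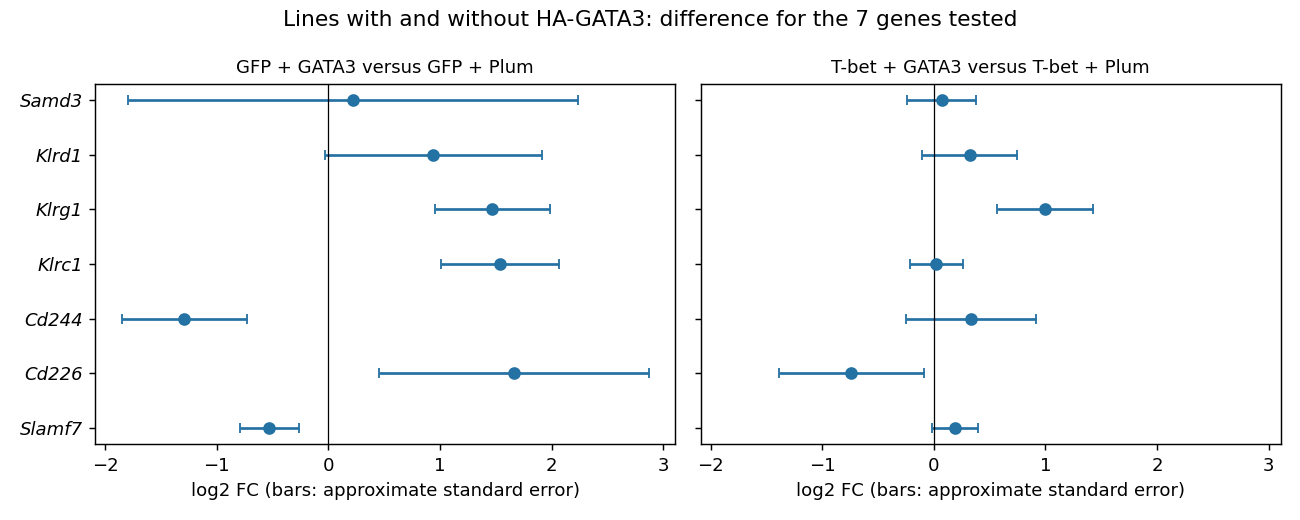
Log2 FC of the 7 tested genes in GFP + GATA3 versus GFP + Plum (left) and between the lines with T-bet (right), with bars for 1 approximate standard error either side. Klrc1 and Klrg1 lie at 1.54 and 1.47 on the left, and Samd3, Klrd1, Klrc1 and Slamf7 lie between 0.02 and 0.32 on the right.

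Klrd1, Klrk1, Klrc1 and Klrb1c lie in the natural killer gene complex, taken here as chr6:128609227-131247362 on GRCm38, from the first Klrb1 gene to the last Klra gene. It holds 43 protein-coding genes over 2640 kb, and 12 of them passed the filter on low counts. Of the 39 genes other than the 4 members, 10 were tested, 28 had at most 10 counts in every library and 10 had none. Without GATA3, 4 of the 10 rose with T-bet, where 2.12% of all 14791 tested genes were called higher, and the 10 had a median log2 FC of 2.21, or the same with Klrc2 at the lower bound given next, against 0.01 over all tested genes. With GATA3, 5 rose, where 1.99% of all tested genes did, with a median of 2.15 against 0.01. Genes near 0 without T-bet pass the filter only if they are high with it, so these counts and medians describe the genes that passed.

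The members with high levels in the T-bet lines had neighbours near 0. Between Klre1 and Klrc1, a stretch of 101 kb holds 6 protein-coding genes in the order Klre1, Klrd1, Klrk1, Klrc3, Klrc2 and Klrc1. Klre1, Klrd1, Klrc2 and Klrc1 were high with T-bet, while Klrk1 and Klrc3 between them had at most 4 and 3 counts. Klre1 encodes a receptor chain that pairs with other lectin-like chains. It was at 0.186 and 0.127 CPM in GFP + Plum, 4.98 and 7.45 in T-bet + Plum, 0.287 and 0.127 in GFP + GATA3, and 12.4 and 6.32 in T-bet + GATA3. Its log2 FC was 5.24 (SE 0.571, FDR 0.00178) without GATA3 and 5.52 (SE 0.57, FDR 0.00152) with it. Klre1 passed the filter only through the lines with T-bet, so nothing is read from its calls. Klrc2, the activating alternative to Klrc1 as partner of Klrd1, had 0 and 0 counts in GFP + Plum, 19 and 94 in T-bet + Plum, 2 and 0 in GFP + GATA3, and 27 and 61 in T-bet + GATA3. Against a floor of 3 counts per library in GFP + Plum, the lower of its T-bet + Plum libraries was at least 12.4-fold higher (FDR of the comparison of lines 0.00968). With GATA3 its log2 FC was 5.33 (FDR 0.0224). Klrc2 also passed the filter only through the lines with T-bet, so nothing is read from its call in either comparison. Its first call was lost without T-bet + Plum library 2 (FDR 0.0593, the highest of its alternatives). Its second was lost with length offsets and without any library of either line, with FDRs up to 0.137.

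Further along the complex, Klra7, a Ly49 receptor for MHC class I, was at 0.99 and 1.14 CPM in GFP + Plum, 44.3 and 53.8 in T-bet + Plum, 2.20 and 2.35 in GFP + GATA3, and 50.3 and 31.0 in T-bet + GATA3. It rose by a log2 FC of 5.52 (SE 0.304, FDR 7.86e-05) and 4.14 (SE 0.281, FDR 0.000191). Klra1, a related Ly49 gene, was already at 41.1 to 102 CPM without T-bet and at 134 to 193 CPM with it, and its log2 FCs of 1.19 and 1.14 did not pass (FDR 0.139 and 0.156). The Ly49 genes are similar in sequence, so fragments may be split between them. BC035044, in the Klrb1 end of the complex, rose by 4.23 (SE 0.428, FDR 0.00141) and 3.95 (SE 0.442, FDR 0.00217). Olr1, a lectin-like receptor for oxidized lipoprotein, rose with GATA3 present by 2.12 (SE 0.289, FDR 0.00528), and its log2 FC without GATA3 was 1.01 (FDR 0.0809). The interaction of Olr1 was 1.11 (SE 0.394, FDR 1.0), so a difference between the comparisons was not shown. Clec2i, at 147 to 187 CPM in every library, had log2 FCs of 0.01 and 0.06. Cd69, an early activation antigen, was at 132 to 217 CPM without T-bet and at 227 to 394 CPM with it. Its log2 FCs were 0.62 (FDR 0.237) and 1.17 (FDR 0.0377), the latter under the size threshold. Over the Klr family as a whole, 21 genes were listed besides the members, 16 had at most 10 counts in every library, 5 were tested, and 3 rose in each comparison, beside the shares of 2.12% and 1.99% over all genes. Klre1, Klrc2 and Klrb1f passed the filter only through the lines with T-bet, so nothing is read from that count or from the medians. The median log2 FC of the 5 tested genes was 5.24 without GATA3, or 3.64 with Klrc2 at its lower bound, and 4.14 with GATA3.

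**Figure D3:**
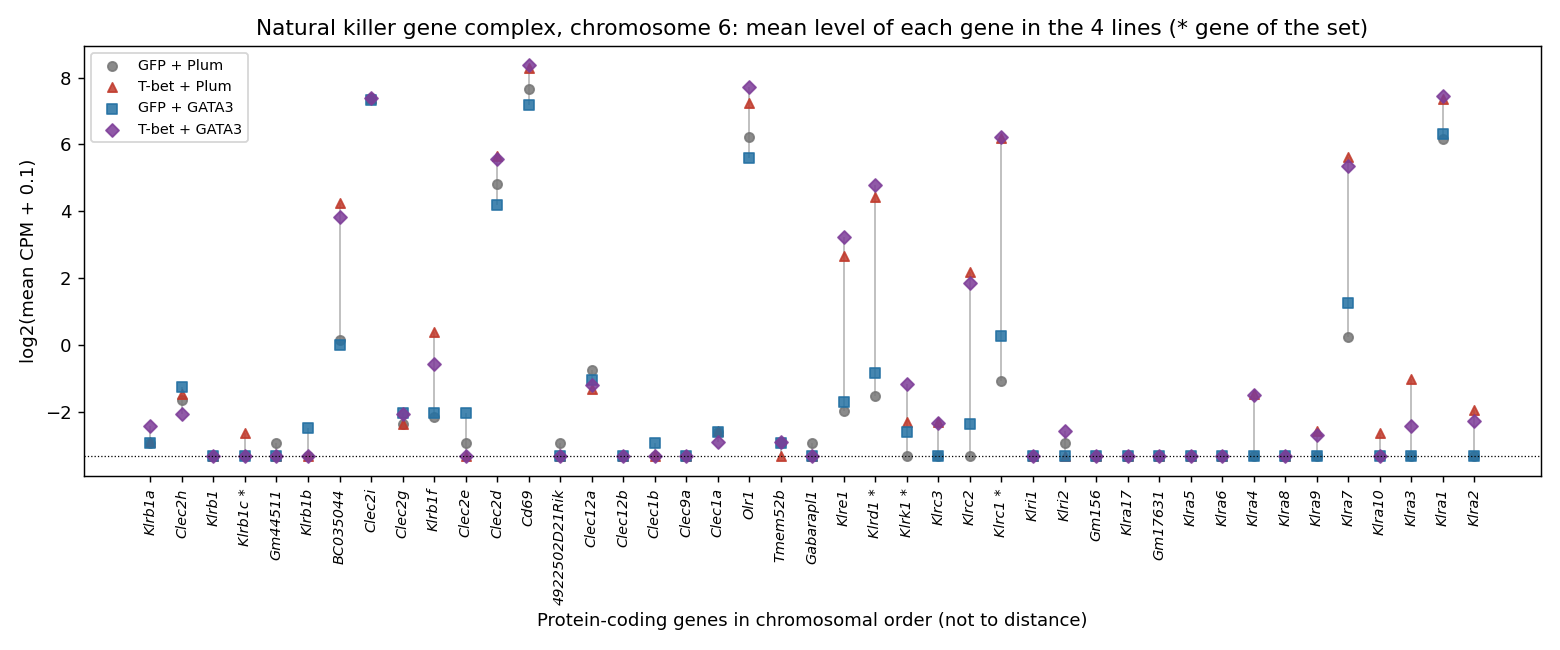
Mean level of each of the 43 protein-coding genes of the natural killer gene complex in the 4 lines, as log2(mean CPM + 0.1), in chromosomal order and not to distance. Asterisks mark the 4 members, and the dotted line marks 0 counts. Klre1, Klrd1, Klrc2 and Klrc1 separate by T-bet, with Klrk1 and Klrc3 between them near the dotted line.

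The other SLAM family genes and their adaptors showed a single further call. Of 10 genes, 5 were tested and Cd84 rose in both comparisons, where 2.12% and 1.99% of all tested genes did, with a median log2 FC of the tested genes of 0.74 and 0.76. Cd84, a self-binding SLAM receptor, was at 21.5 and 25.6 CPM in GFP + Plum, 188 and 223 in T-bet + Plum, 28.7 and 27.0 in GFP + GATA3, and 165 and 183 in T-bet + GATA3. Its log2 FC was 3.13 (SE 0.152, FDR 6.04e-05) and 2.65 (SE 0.15, FDR 0.000104), beside 3.05 and 3.77 for Slamf7. Cd48, the ligand of Cd244, had log2 FCs of 0.85 (FDR 0.0241) and 0.78 (FDR 0.0358), under the size threshold. Ly9 had 0.74 (FDR 0.0263) and 0.50 (FDR 0.105). Sh2d1a, which encodes the adaptor SAP, had at most 2 counts in any library.

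Of 9 adaptors and phosphatases that carry the signals of these receptors, 7 were tested and a single gene was called in each comparison, lower with T-bet. That gene was Fcer1g, which encodes the FcR gamma chain used by NKp46 and Fc receptors. It was at 39.2 and 25.4 CPM in GFP + Plum, 2.12 and 3.01 in T-bet + Plum, 25.9 and 21.9 in GFP + GATA3, and 2.60 and 1.20 in T-bet + GATA3. Its log2 FC was -3.62 (SE 0.359, FDR 0.00136) and -3.73 (SE 0.376, FDR 0.00135), where 0.892% and 0.859% of all tested genes were called lower. Tyrobp, which encodes the adaptor DAP12 for Klrc2-type activating receptors, had 0 counts in every library. Hcst, which encodes DAP10 for Klrk1, was detected and had log2 FCs of 1.33 (FDR 0.0341) and 0.96 (FDR 0.106). Ptpn6, the SHP-1 phosphatase recruited by inhibitory receptors such as Klrc1, had log2 FCs of -0.04 (FDR 0.934) and -0.34 (FDR 0.312). Ptpn11, the related SHP-2 phosphatase, had 1.14 (SE 0.191, FDR 0.0132) and 1.06 (SE 0.191, FDR 0.0169), and the kinase gene Fyn had 0.95 (SE 0.136, FDR 0.00634) and 0.89 (SE 0.136, FDR 0.00839). Both genes passed the FDR but not the size threshold in each comparison, and their 4 libraries with T-bet lay above the other 4 in CPM. A further gene was called without GFP + Plum library 1, for 2 in all in the first comparison. The median log2 FC of the tested genes was 0.11 without GATA3 and -0.19 with it.

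Ligands of the member receptors were also listed, since T cells carry several of them. Of 13 found, 5 were tested, and edgeR and DESeq2 called 0 in either comparison, where edgeR called 2.12% and 1.99% of all tested genes higher, with medians of 0.85 and 1.08. At an unadjusted p under 0.05 there were 4 in each, where 19.4% and 19.6% of all tested genes were. Without GFP + Plum library 2, 1 ligand was called in the first comparison, and without either T-bet + GATA3 library 1 was called in the second. H2-T23, which encodes the Qa-1 molecule bound by CD94 and NKG2A, was at 22.0 to 27.8 CPM without T-bet and at 46.4 to 65.5 CPM with it. Its log2 FCs of 1.02 (SE 0.168, FDR 0.012) and 1.08 (SE 0.168, FDR 0.00903) passed the FDR but not the size threshold. Pvr, a ligand of Cd226, had 1.48 (FDR 0.0208) and 1.46 (FDR 0.0226), just under the size threshold, and Nectin2 had 0 counts. Clec2d, a lectin-like ligand of Klrb1-type receptors, had 0.82 (FDR 0.103) and 1.39 (FDR 0.0171). Of the ligands of Klrk1, Ulbp1 reached 905 counts in a library and had log2 FCs of 0.03 (FDR 0.97) and 0.18 (FDR 0.801), whereas the Raet1 and H60 genes found in the files had at most 2 counts.

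Among 18 other receptors of NK and effector T cells, 12 were tested, with median log2 FCs of 0.60 and 0.85. The same 4 genes were called higher in each comparison, beside 2.12% and 1.99% of all tested genes. Itga2 was among them and passed the filter only through the lines with T-bet, so nothing is read from that count. Crtam, which encodes a receptor of activated cytotoxic cells, was at 165 and 44.7 CPM in GFP + Plum, 1300 and 1370 in T-bet + Plum, 81.4 and 32.2 in GFP + GATA3, and 951 and 812 in T-bet + GATA3. Its log2 FC was 3.67 (FDR 0.0138) and 3.97 (FDR 0.0107). The first call was lost without either T-bet + Plum library and the second without GFP + GATA3 library 2, with FDRs up to 0.0741. Cd160, which encodes a receptor of NK and CD8+ T cells, rose by 3.94 (SE 0.273, FDR 0.000213) and 4.58 (SE 0.286, FDR 0.000129). Itga2, which encodes the CD49b integrin chain carried by NK cells, had at most 4 counts in any library without T-bet. Its log2 FCs were 5.04 (SE 0.394, FDR 0.000388) and 4.94 (SE 0.459, FDR 0.000918). It passed the filter only through the lines with T-bet, so nothing is read from its calls. Lilr4b, an immunoglobulin-like receptor, rose by 2.38 (FDR 0.0138) and 2.39 (FDR 0.0121). Its first call was lost without either T-bet + Plum library, and its second without either GFP + GATA3 library and without T-bet + GATA3 library 1, with FDRs up to 0.0971. Cd200r1, an inhibitory receptor for CD200, had log2 FCs of -1.21 (FDR 0.0223) and -1.21 (FDR 0.024), lower at the FDR but under the size threshold. The calls of Klra7, BC035044, Cd84, Fcer1g and Cd160 held in all 13 alternative analyses of each comparison.

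**Figure D4:**
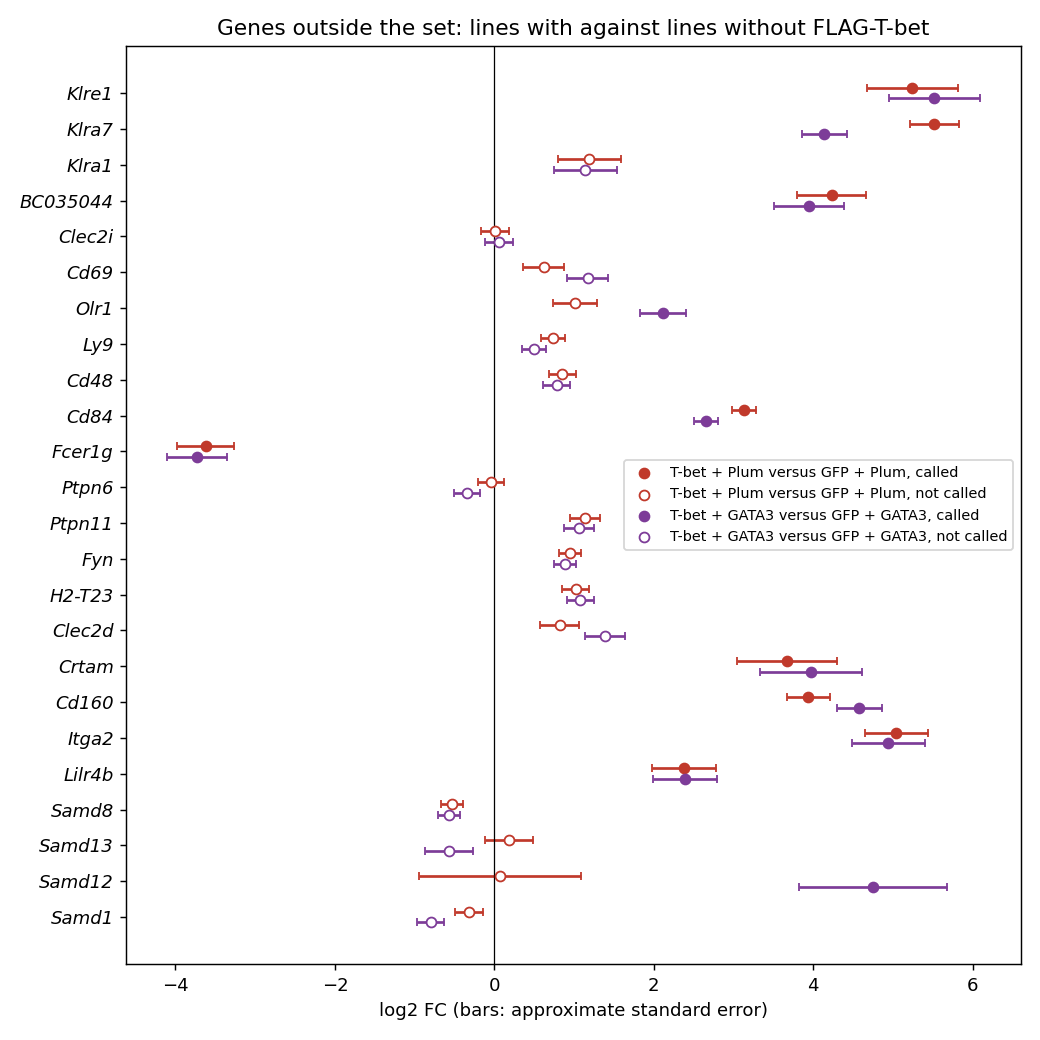
Log2 FC of named genes outside the set in T-bet + Plum versus GFP + Plum (red) and in T-bet + GATA3 versus GFP + GATA3 (purple), with bars for 1 approximate standard error either side. Filled points were called and open points were not, and Klrc2 is left out because its control line had 0 counts. Fcer1g lies at -3.62 and -3.73. Klre1, Klra7, BC035044, Cd84, Crtam, Cd160, Itga2 and Lilr4b lie above 2 in both comparisons. Klre1 and Itga2 passed the filter on low counts only through the lines with T-bet.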

How the data were processed

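Poly-adenylated RNA of 8 libraries from 4 EL4 lines was sequenced as paired-end reads. The study's legend gives 3 biological replicates for these data, whereas 2 libraries per line were analysed here. The authors trimmed reads (FastQC, Trim Galore!) and quantified transcripts with kallisto on Gencode models of GRCm38 (mm10), without pooling libraries. Tool versions are not given in the sources used here. The deposited tables hold estimated counts, TPM and effective lengths (another deposited value, used for length offsets) for 136535 transcripts.

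Estimated counts and TPM were summed per gene (54146 genes), and estimated counts were rounded. Gene symbols were read from the identifiers, and positions from Gencode M21, which held 54079 of the genes. edgeR 4.0.16 in R 4.3.3 (TMM, filterByExpr, quasi-likelihood test, Benjamini-Hochberg adjustment over 14791 tested genes) fitted the 4 lines of 2 libraries together with no block. The study's methods use DESeq2 after tximport. DESeq2 on the rounded counts, without length offsets, served as an alternative here. Approximate SEs are the log2 FC over the square root of F. Ratios of pooled counts have exact 95% intervals.

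The members and the lists were chosen with earlier results of these data known. Beyond the members, a gene was named if called in a comparison of lines or among the 3 highest of its list by mean TPM. Other genes named (Hcst, Pvr, Cd200r1, Klrk1's ligands, Klrc3, Sh2d1a, Tyrobp and Nectin2) were chosen after their values were seen, for their known roles. Replicate libraries were not copies (chi-square over degrees of freedom of 10.2 to 30.9). Scripts were tested on simulated data with 200 of 14358 genes changed, and found 87% of those changed by a log2 FC of 2 in GFP + GATA3 versus GFP + Plum, and 98% at 3. For the interaction, with 200 of 14339 genes changed, they found 78% and 85%, with 6.32% of calls false. The changed genes were drawn from those with a mean above 1 CPM, and the spread was taken from the trend over all genes. These shares therefore do not hold for members near 0 in the lines without T-bet. Alternatives were DESeq2 1.42.0, length offsets, library size only, no filter, the replicate number as a block, each library left out, FDR alone, and log2(TPM + 1) or log2(TPM + 0.1). Promoters are RefSeq windows on GRCm38.p6. Binding and accessibility data were not used here.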

Additional observations from a re-analysis of the deposited data

How the results depend on the processing

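On log2(TPM + 1), Samd3 differed by 4.88 between T-bet + GATA3 and GFP + GATA3, where the fitted log2 FC was 10.11, since the added 1 exceeds its lower levels. A single count limits the Samd3 denominators, and differences near or below 3 counts in Klrk1, Klrb1c and Ncr1 cannot be judged at this depth.

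With no filter on low counts, the genes called numbered 814 and 813 in the 2 T-bet comparisons, 138 in GFP + GATA3 versus GFP + Plum, 124 between the lines with T-bet and 145 in the interaction. More genes were tested there. DESeq2 called 29, 23 and 14 in the last 3. The main counts were 446, 421, 3, 5 and 0. With single libraries left out they ran from 201 to 444, 197 to 475, 0 to 5, 1 to 8 and 0 to 3, in that order. The lowest came without T-bet + Plum replicate 2, without GFP + GATA3 replicate 2, and, in the GATA3 comparison within T-bet cells, without either T-bet + Plum library.

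Libraries with the same number did not deviate together in every pair (correlations from -0.0455 to 0.302), so the numbers were not taken as pairs. With the replicate block the genes called numbered 536, 531, 4, 4 and 0, and 0 members were called in the GATA3 comparisons and the interaction. The block turned the log2 FC of Samd3 between the lines with T-bet to -0.01, and library size only turned that of Klrc1 to -0.01.

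Leaving out libraries turned the sign of small values. Some ends of the ranges below left Samd3 or Cd226 with 0 counts in a line, and such values are no usable estimates. In GFP + GATA3 versus GFP + Plum Samd3 ran from -2.07 to 2.28 and Cd226 from -2.89 to 2.44. Between the lines with T-bet, Samd3 ran from -0.52 to 0.49, Klrd1 from -0.19 to 1.20, Klrc1 from -0.33 to 0.51 and Cd244 from -0.35 to 0.86. In the interaction Samd3 ran from -2.21 to 2.14, Klrd1 from -1.13 to 0.26, Klrg1 from -0.86 to 0.20 and Cd226 from -3.18 to 2.14. No member was called in any of these.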

Other observations

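The SAM domain family was listed to set Samd3 beside its named relatives. Of 13 other genes, 8 were tested, with a median log2 FC of -0.03 in T-bet + Plum versus GFP + Plum and -0.34 in T-bet + GATA3 versus GFP + GATA3. In the former edgeR called 0, also at the FDR alone, and DESeq2 0, where 2.12% of all tested genes were called higher, and 2 of the 8 were at an unadjusted p under 0.05, where 19.4% of all tested genes were. In the latter 2 genes, Samd8 (FDR 0.0493) and Samd1 (FDR 0.0357), were lower at the FDR alone with log2 FCs of -0.57 and -0.80, under the size threshold. There Samd12 was called, as 1.99% of all tested genes were called higher, with a log2 FC of 4.75 (SE 0.93, FDR 0.023), from 1 and 0 counts in GFP + GATA3 to 13 and 18 in T-bet + GATA3. It passed the filter on low counts only through T-bet + GATA3, where it is high, so nothing is read from that call. It had 1 and 2 counts in T-bet + Plum, and its interaction was 4.68 (SE 1.49, FDR 1.0). The Samd12 call was lost with DESeq2 and without any T-bet + Plum, GFP + GATA3 or T-bet + GATA3 library, with FDRs up to 0.215. Samd8, Samd13 and Samd1, the family members with the highest TPM, had log2 FCs between -0.80 and 0.18.

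Within a line, the members did not always follow the level of Tbx21. In T-bet + GATA3, library 1 had the lower Tbx21, at 135 against 160 CPM, and the higher Samd3, Klrd1, Klrg1, Slamf7 and Cd244. Klrc1 at 74.7 and 75.5 CPM and Cd226 at 1.30 and 1.40 CPM were nearly level in libraries 1 and 2 of this line. Samd3 was at 70.7 against 34.8 CPM there. In T-bet + Plum, library 2 had the higher Tbx21, at 159 against 129 CPM, and the higher Klrd1, Klrc1, Klrg1, Cd226 and Slamf7. Samd3 was nearly level there, at 49.6 against 50.2 CPM, and Cd244 was at 0.684 against 0.871 CPM on 10 and 7 counts. With 2 libraries a line these values are given as a description.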
